A study of Mus musculus with 4 samples.

Results

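Imprinted genes are transcribed mainly from the maternal or the paternal copy, and a set of them that control growth before and after birth is often found expressed together in mouse tissues. Listed here were 9 such genes: Plagl1, Mest, Sgce, Meg3, Peg3, H19, Dlk1, Grb10 and Ndn. Their members were taken from the platform annotation, as every probe set that carries a listed symbol and no other symbol. This gave 24 probe sets for 8 of the 9 genes, of 12394 genes named on the array. The only probe set annotated with H19 also carries the symbol of a microRNA gene, Mir675, and so fell outside the rule. H19 is therefore not counted among the measured members below, and the values of that shared probe set are given in the closing section.

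The RNA came from myogenic cells, the precursors that rebuild muscle fibres, purified from hind-limb muscle with the help of the antibody SM/C-2.6. All animals were C57BL/6 mice 8 to 12 weeks old, and all had received cardiotoxin, a venom toxin that destroys muscle fibres and leaves the precursor cells able to regenerate them. The groups were cells taken on days 2, 3, 5 and 14 after the injection and not cultured. Each day was measured on 1 Affymetrix 430A array, so the 4 arrays hold no replicate, no difference has an error estimate between animals, and no p-value can be given. SM/C-2.6 binds satellite cells of mouse muscle. The labels name no other marker of the sort and no number of mice behind an array, and no uninjured muscle was among the groups used.

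Signals are MAS5 signals in arbitrary units, brought to a common trimmed mean. The median of all scaled values, 43.0, served as a floor. Lower signals were treated as not told apart from background, which is a choice made here and was not measured. A ratio against a value under the floor is a lower bound, and a gene under the floor on both days was not measured in that comparison. A gene was called higher or lower at 2-fold, the size of change used here in place of a test. As the only measure of error at hand, log2 ratios varied between probe sets of the same gene with an SD of 0.36, 0.37 and 0.32 at the 3 steps between neighbouring days, in order of time, and of 0.55 between days 14 and 2. This covers the 1971 to 2323 genes with several measured probe sets and leaves out the spread between animals. In bulk RNA, fewer cells of a type and less RNA per cell cannot be told apart.

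Imprinted growth genes fall into those that act for growth and those that hold it back. Plagl1 encodes a zinc finger transcription factor that can arrest the cell cycle and that in mice controls other imprinted genes, among them Igf2 and Cdkn1c. Many paternally expressed genes favour growth and many maternally expressed genes restrain it, although several genes of this list do not follow that pattern. In skeletal muscle, Peg3, Dlk1, Ndn and H19 have been studied in mouse satellite cells and myoblasts, the resting and the dividing muscle precursors.

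RefSeq promoter entries, which span 250 bases before and 50 bases after a transcript start on build GRCm38.p6, were found for 7 of the 9 genes. Shown are the promoters of the transcription factor genes Plagl1 and Peg3, of Mest, whose signal had a clear peak, and of Meg3, which had the widest range, so that the sequence can be read beside the signals that follow. They lie at chr10:13090582-13090881 (plus strand), chr7:6730370-6730669 (minus strand), chr6:30737800-30738099 (plus strand) and chr12:109540746-109541045 (plus strand). Capitals mark matches on either strand to any of 5 short motifs: GGGGCCCC (bound by PLAGL1), CAGCTG (an E-box of the myogenic bHLH factors), GCCATNTT (YY1), TGCCGC (the methylated motif of ZFP57, which keeps imprints in mice) and TATAAA (the TATA box).
Plagl1: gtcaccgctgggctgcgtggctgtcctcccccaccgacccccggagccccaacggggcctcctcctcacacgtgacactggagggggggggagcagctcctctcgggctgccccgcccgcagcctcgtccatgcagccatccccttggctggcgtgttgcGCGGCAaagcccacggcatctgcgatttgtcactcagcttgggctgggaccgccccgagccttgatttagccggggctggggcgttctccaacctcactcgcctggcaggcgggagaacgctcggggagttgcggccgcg
Peg3: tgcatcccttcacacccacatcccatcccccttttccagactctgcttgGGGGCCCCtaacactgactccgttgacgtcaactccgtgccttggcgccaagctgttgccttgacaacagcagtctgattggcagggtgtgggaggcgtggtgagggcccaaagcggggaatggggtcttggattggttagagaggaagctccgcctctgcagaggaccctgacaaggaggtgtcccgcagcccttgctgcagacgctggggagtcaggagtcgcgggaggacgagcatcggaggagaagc
Mest: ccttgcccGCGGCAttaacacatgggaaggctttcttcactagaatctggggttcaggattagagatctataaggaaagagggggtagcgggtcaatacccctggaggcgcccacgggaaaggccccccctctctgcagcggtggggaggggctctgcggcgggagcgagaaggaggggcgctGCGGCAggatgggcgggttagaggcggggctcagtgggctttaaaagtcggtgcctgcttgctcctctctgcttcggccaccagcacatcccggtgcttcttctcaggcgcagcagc
Meg3: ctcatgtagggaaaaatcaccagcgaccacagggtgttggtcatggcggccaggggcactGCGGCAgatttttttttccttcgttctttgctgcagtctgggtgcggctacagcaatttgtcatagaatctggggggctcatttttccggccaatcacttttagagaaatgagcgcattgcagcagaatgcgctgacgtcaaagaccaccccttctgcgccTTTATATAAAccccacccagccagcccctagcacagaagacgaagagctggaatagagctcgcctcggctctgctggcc
The Peg3 promoter holds GGGGCCCC, which starts 201 bases before the transcript start and which 1.08% of 32851 promoters of this length hold. It was the only one of the 11 promoter entries of these genes with this motif. TGCCGC lies at 1 place in the promoters of Plagl1 and Meg3 and at 2 places in that of Mest, always on the strand opposite to the one printed, and 11.6% of all promoters hold it. The Meg3 promoter has TATAAA on both strands, overlapping each other around 25 bases before the start, against 13.6% of all promoters with at least 1 match. CAGCTG (16.3% of all promoters) and GCCATNTT (6.05%) have no match in these 4 windows, and CAGCTG is found in another Mest entry that starts farther upstream. The dinucleotide CG occurs 26 times in the Plagl1 window, 13 times in that of Peg3, 17 times in that of Mest and 13 times in that of Meg3, against a median of 7 over all promoters. A match describes the letters only, and neither methylation nor binding was measured.

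The 2 transcription factors differed in their course, and Plagl1 had nearly all of its difference between days 3 and 5. Its probe set 1426208_x_at read 558 at 2 days, 623 at 3 days, 5753 at 5 days and 4346 at 14 days. Days 2 and 3 were low and alike, and days 5 and 14 were high. Day 5 stood 9.23-fold above day 3 (log2 ratio 3.21), which placed Plagl1 21st from the top of 7523 measured genes. Day 14 was 7.79-fold above day 2 and within 2-fold of day 5 (log2 ratio -0.40). The log2 ratio of day 3 to day 2 was 0.16, and its sign turned with the values as deposited (-0.03) and with scaling to a common median (-0.34). The suffix x, which the brightest probe sets of Meg3 and Ndn carry too, marks probes that can also bind other transcripts. The second Plagl1 probe set, 1450533_a_at, stayed under the floor on every array, at 0.897, 2.04, 36.7 and 3.42 on days 2, 3, 5 and 14. The values of Plagl1 thus rest on 1 probe set.

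Peg3, a paternally expressed zinc finger protein, was higher on each later day by smaller ratios, although day 14 and day 5 were nearly equal. Its brightest probe set, 1433924_at, read 1436 at 2 days, 2119 at 3 days, 3781 at 5 days and 3992 at 14 days. The increments of day 3 over day 2 (log2 ratio 0.56) and of day 5 over day 3 (0.83) each stayed under 2-fold, while day 14 was 2.78-fold above day 2. Probe set 1417355_at read 432, 659, 1709.9 and 1796 on days 2, 3, 5 and 14. Probe set 1417356_at read 33.1, 86.0, 155 and 175 on the same days, its first value under the floor. All 3 probe sets had the same order of days, and their log2 ratios of day 14 to day 2 were 1.47, 2.05 and at least 2.03. Scaling to a common median lowered the first of these to 0.63 and took it under 2-fold. The log2 ratio of day 14 to day 5, 0.08, turned to -0.01 with the values as deposited and to -0.03 with that scaling.

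Mest had its peak on day 5. This gene encodes a membrane protein of the endoplasmic reticulum with an alpha/beta hydrolase fold and is expressed from the paternal copy. Its single probe set, 1423294_at, read 399.9 at 2 days, 2188 at 3 days, 4368 at 5 days and 1564 at 14 days. Day 2 was the lowest array, and day 14 lay below days 3 and 5 but well above day 2. Day 3 was 5.47-fold above day 2 (log2 ratio 2.45), the 49th highest ratio of 6992 measured genes. Day 5 was 1.996-fold above day 3, just short of 2-fold, and was called with the values as deposited (log2 ratio 1.30) and after quantile normalization (1.05). Day 14 was 2.79-fold below day 5 and 3.91-fold above day 2. By the brightest probe sets, Mest was the only member called lower in any of the 4 comparisons.

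Sgce encodes epsilon-sarcoglycan, a membrane protein related to the sarcoglycans of the dystrophin complex, and is paternally expressed. Its course was like that of Plagl1. Its probe set 1420688_a_at read 158 at 2 days, 226 at 3 days, 1044 at 5 days and 1036 at 14 days. Days 14 and 5 were alike (log2 ratio -0.01) and lay far above days 2 and 3. Day 5 was 4.62-fold above day 3 (log2 ratio 2.21) and day 14 was 6.54-fold above day 2.

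Grb10 and Ndn changed least among the members read on every array. Grb10 encodes an adaptor that binds the insulin and IGF1 receptors and damps their signal, and outside the brain it is expressed from the maternal copy. Its probe set 1425458_a_at read 1905 at 2 days, 2857 at 3 days, 3541 at 5 days and 3096 at 14 days. No step reached 2-fold, the log2 ratio of day 14 to day 2 being 0.70, or -0.14 after scaling to a common median. The dim probe set 1425457_a_at read 34.8, 64.0, 119.5 and 57.9 on days 2, 3, 5 and 14, so that its day 14 was lower than day 5 by a log2 ratio of -1.05. Another probe set, 1430164_a_at, was above the floor on day 14 alone (61.1).

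Ndn encodes necdin, a protein of the MAGE family that restrains proliferation and is paternally expressed. It has 8 probe sets, of which 5 were above the floor on all 4 arrays and 3 on none. The brightest, 1437853_x_at, read 459 at 2 days, 409 at 3 days, 730.2 at 5 days and 687 at 14 days. Day 5 was highest in each of the 5 readable probe sets. Their log2 ratios of day 5 to day 3 lay between 0.66 (1415923_at) and 1.33 (1435383_x_at), with 0.84 for the brightest, so 2-fold was reached by some probe sets and not by others. Their ratios of day 14 to day 2 lay between 0.46 and 0.79. For the brightest this was 0.58, and its sign turned after scaling to a common median (-0.26).

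Dlk1 and Meg3 lie beside each other in a single imprinted cluster, Dlk1 being paternally and Meg3 maternally expressed. Dlk1 encodes a membrane protein with EGF-like repeats, related to the ligands of Notch receptors. Its probe set 1449939_s_at read 14.6 at 2 days, 21.6 at 3 days, 38.4 at 5 days and 77.1 at 14 days. Only day 14 was above the floor. Day 14 was therefore at least 1.80-fold above both day 5 and day 2, short of 2-fold. With the floor at 0.5 times its value, day 14 was called against day 5 (log2 ratio 1.005) and against day 2 (at least 1.84).

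Meg3, a long noncoding RNA, was higher on each later day and had the widest range of the 8 measured members. Its brightest probe set, 1439380_x_at, read 44.6 at 2 days, 146 at 3 days, 455 at 5 days and 1613 at 14 days. Each array lay above the one before by a similar ratio, 3.26-fold for day 3 over day 2, 3.12-fold for day 5 over day 3 and 3.55-fold for day 14 over day 5. Day 14 was 36.1-fold above day 2, the 21st highest ratio of 7669 measured genes. Probe set 1452183_a_at read 13.5, 52.6, 192 and 1171 on days 2, 3, 5 and 14. Probe set 1426758_s_at read 4.19, 37.7, 109 and 655 on those days. In all 3 probe sets day 14 was highest and day 5 next, and the 2 others read above the floor on day 14 alone, at 47.3 (1436057_at) and 51.8 (1436713_s_at). The day 3 call rests on a day 2 signal of 44.6 that lies next to the floor. It was lost with the floor at 2 times its value (log2 ratio 0.76) and with the mean of all 5 probe sets (0.40), and that mean also took day 5 against day 3 just under 2-fold (0.97).

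**Figure D1:**
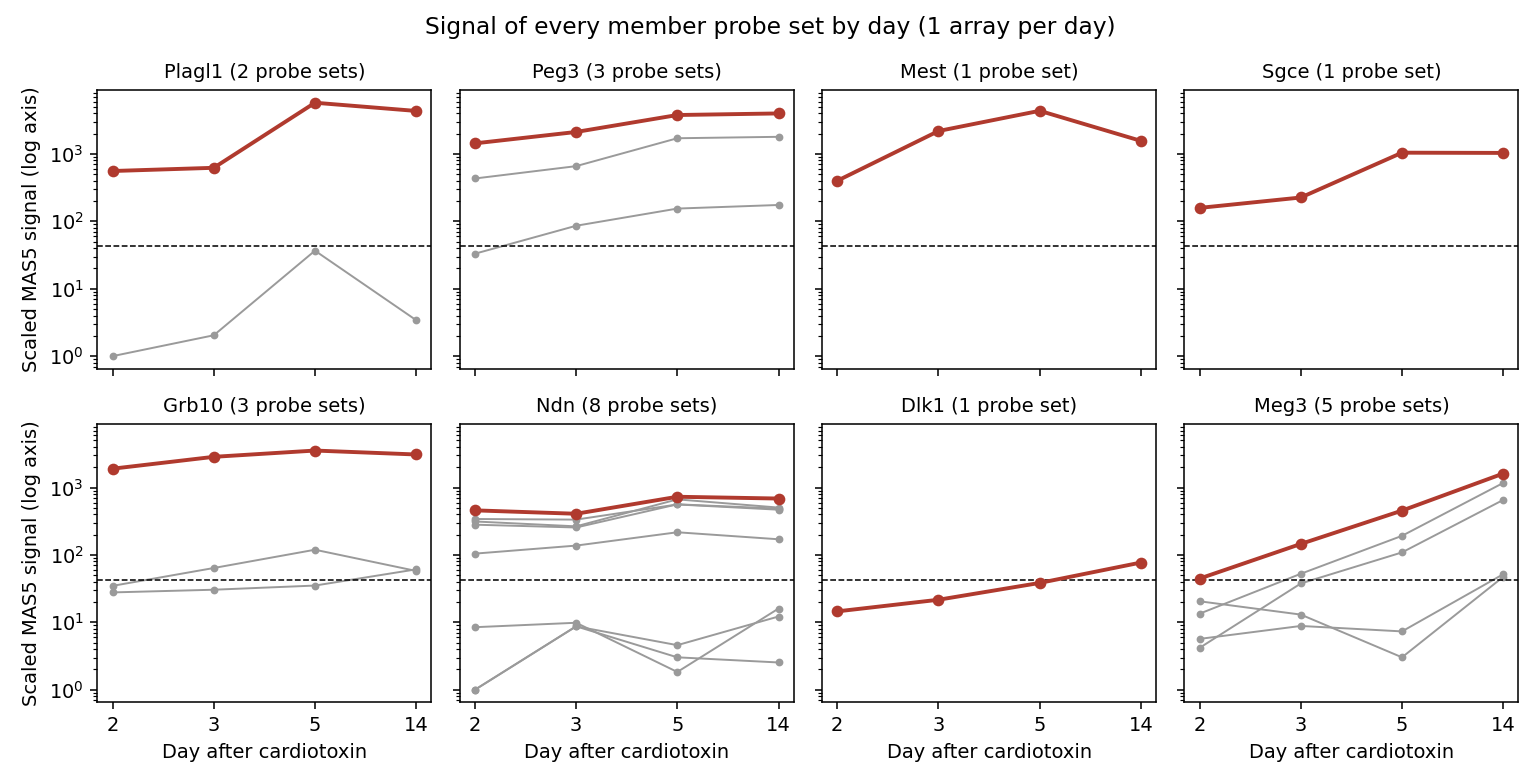
Scaled MAS5 signal on a log axis against the day after cardiotoxin, with every probe set of the 8 measured genes as a line (red, the brightest probe set of the gene; grey, its others; dashed line, the floor of 43.0; values under 1 are drawn at 1). Plagl1 and Sgce step up between days 3 and 5, Mest peaks on day 5 at 4368, and Meg3 climbs to 1613 on day 14.

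Between the first pair of days, day 3 and day 2, members that differed were few. Of 7 measured members, 2 were at least 2-fold higher, Mest and Meg3, and none was lower. Among all 6992 measured genes 6.69% were higher and 1.8% lower by this size, 8.5% in either direction. The median log2 ratio was 0.56 over the members and 0.06 over all measured genes. Of the 15 measured probe sets of the members, 11 had a log2 ratio above 0 and 4, all of Ndn, below 0. A probe set with only its earlier day under the floor cannot have a ratio below 0, here or in the next comparisons.

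On day 5 several members stood higher than on day 3. Of 7 measured members, Plagl1, Sgce and Meg3 were at least 2-fold higher, 3 in all, and none was lower, while Mest, at 1.996-fold, missed it narrowly. Over all 7523 measured genes 11.6% were higher and 5.97% lower, 17.6% in either direction. The median log2 ratio was 0.997 over the members and 0.06 over all genes. All 16 measured member probe sets had a log2 ratio above 0 and 8 of them reached 2-fold. With the values as deposited, 6 of the 7 members were called, and 18.2% of all genes were higher.

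On day 14 most members lay near their day 5 level. Of 8 measured members, Meg3 was at least 2-fold higher and Mest at least 2-fold lower. Over all 7709 measured genes 4.81% were higher and 3.1% lower, 7.91% in either direction. The median log2 ratio was -0.05 over the members and 0.01 over all genes. Of the 3 members that were called higher on day 5 than on day 3, Plagl1 and Sgce stayed within 2-fold of their day 5 level. Among all 874 genes with that call 80% did so, 8.35% were at least 2-fold lower on day 14 and 11.7% at least 2-fold higher, as Meg3 was.

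With day 14 set against day 2, the ends of the series, 5 of 8 measured members were at least 2-fold higher, namely Plagl1, Mest, Sgce, Meg3 and Peg3, and none was lower. Over all 7669 measured genes 22.8% were higher and 14.8% lower, 37.6% in either direction. The median log2 ratio was 1.72 over the members and 0.20 over all genes. All 20 measured member probe sets had a ratio above 0, but only 12 of them were above the floor on all arrays, 5 of these being of Ndn. The others were under the floor on day 2, so their ratio could not lie below 0. Grb10 and Ndn turned below 0 after scaling to a common median. These comparisons share arrays with one another, so their values are not independent.

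**Figure D2:**
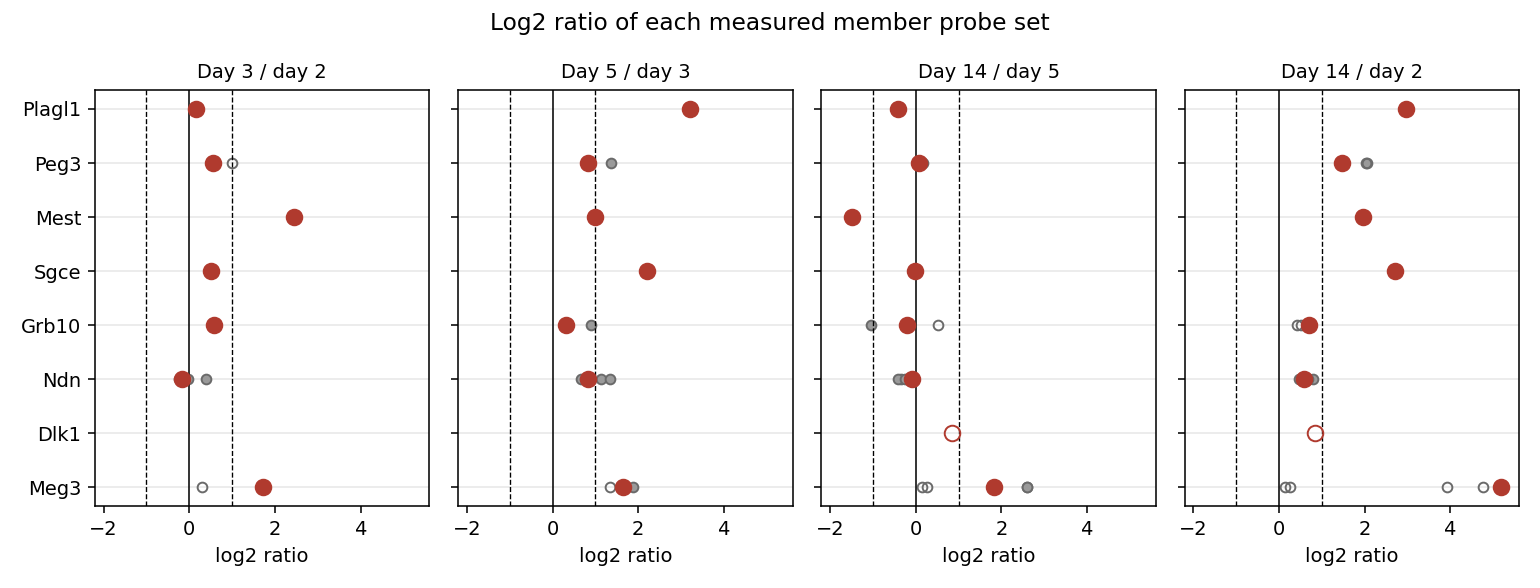
Log2 ratio (horizontal axis) of each measured probe set of the members (vertical axis) in the 4 comparisons, with the later day over the earlier one (large red, brightest probe set; small grey, others; open symbols, a value on 1 side under the floor, so a bound; dashed lines, 2-fold). All 16 probe sets lie above 0 for day 5 against day 3, while 10 lie above and 10 below 0 for day 14 against day 5. A probe set with only its earlier day under the floor cannot lie below 0. All 5 readable Ndn probe sets are among those below 0 for day 14 against day 5.

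**Figure D3:**
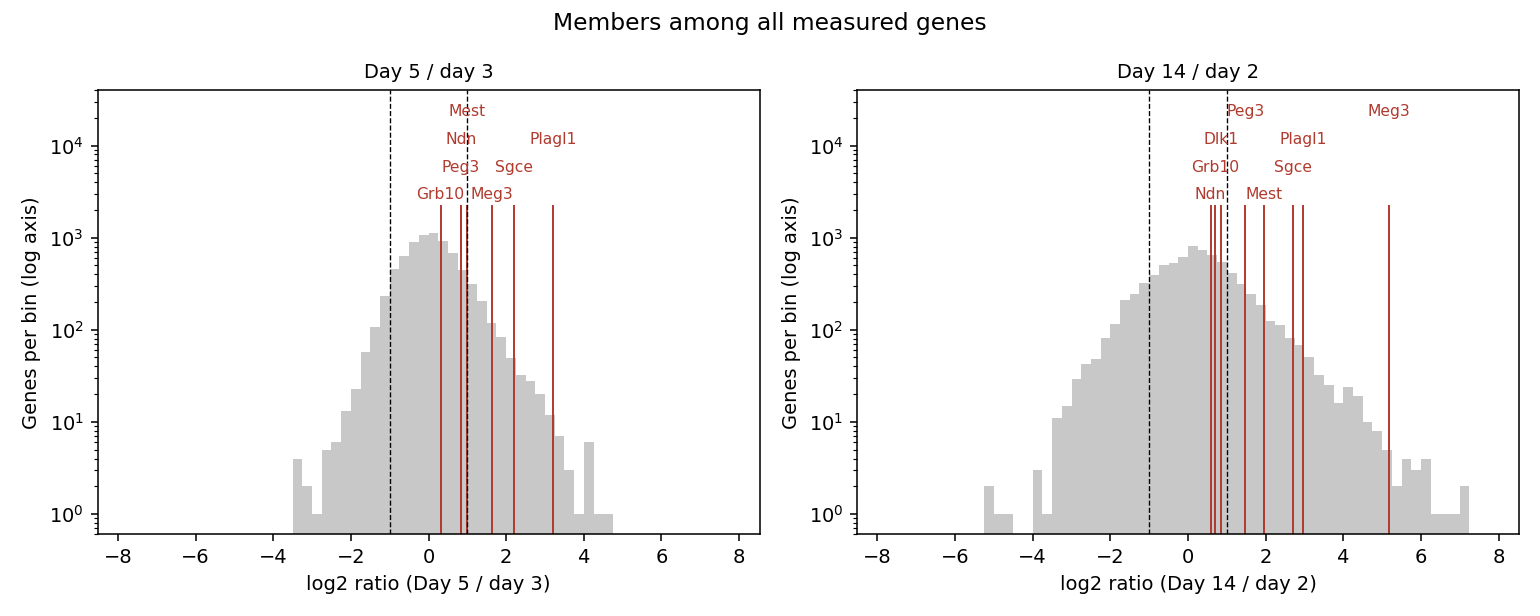
Number of genes (log axis) by log2 ratio for day 5 against day 3 (left) and day 14 against day 2 (right), with the brightest probe set of each member as a red line and dashed lines at 2-fold. Plagl1 lies at 3.21 in the left panel and Meg3 at 5.17 in the right panel.

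The share of calls that were higher depended on scaling, since the arrays differ in their median signal. On day 3, set against day 2, it was 78.8% of all calls and between 20.9% and 78.8% over the 4 scalings tried. On day 5, set against day 3, it was 66.1% (41.0% to 87.4%). On day 14 it was 60.8% (48.3% to 60.8%) relative to day 5 and 60.7% (23.5% to 62.2%) relative to day 2. Measured from the median of all genes, the member median moved less. Apart from quantile normalization, each scaling multiplies an array by 1 factor, which shifts members and all genes alike except near the floor. The smaller movement therefore follows largely from the method and is no test of the members. The log2 distance of the member median above the all-gene median was between 0.47 and 0.66 at the first step and between 0.92 and 1.08 at the next. It lay between -0.06 and -0.01 for day 14 relative to day 5, and between 1.45 and 1.82 relative to day 2.

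The members did not share a single profile. Profiles were compared by the distance between log2 signals of the brightest probe sets, floored and centred on their own mean over the 4 arrays, as a description of 4 points that share their arrays. Of the 28 pairs of members, Grb10 and Ndn were closest (0.57), 2 genes that changed little. Among the genes with a wide range, Plagl1 and Sgce were the closest pair (0.73), and Mest and Meg3 were far apart (3.08). Dlk1 and Meg3, neighbours in the genome, were among the most distant (3.29), with Dlk1 under the floor on 3 arrays.

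Outside the list, the genes with profiles nearest to Plagl1 were Mfap5, a microfibril protein (distance 0.26), Col14a1, a collagen of fibril surfaces (0.32), and Ptprs, a receptor phosphatase (0.33). Those nearest to Sgce were Bmp1, a protease that processes procollagens (0.17), Ecrg4 (0.17) and Col8a1, a short-chain collagen (0.19). Nearest to Mest were the transcription factor gene Creb3l1 (0.46), Tgfb1i1 (0.51) and Ckb, the brain form of creatine kinase (0.52). For Meg3 the nearest were Rgs5, a marker of pericytes (0.39), Spry1, a feedback inhibitor of FGF signalling (0.65), and Adcy2, an adenylate cyclase (0.67). For Peg3, whose range is narrow, the nearest were Vps9d1 (0.03), Cspg4 (0.04) and Tgif1 (0.04). Those nearest to Grb10 were Cox16 (0.10), Slc27a4 (0.11) and Rgcc (0.14), and those nearest to Ndn were Tsc1 (0.15), Relb (0.17) and Hdac7 (0.21). For Dlk1, whose profile is the floor on 3 arrays and so says little, they were Kmt2e (0.14), Mknk1 (0.14) and Mdm4 (0.15). All were drawn from 3300 genes above the floor on at least 3 arrays with a log2 range of at least 1. Grb10, Ndn and Dlk1 had ranges of 0.89, 0.84 and 0.84 themselves, so genes as flat as these members could not be named. Mfap5, Col14a1, Creb3l1, Ecrg4, Rgs5 and Cspg4 were under the floor on day 2, so the floor set that part of their profile. Cspg4 read 6.38, 64.4, 112 and 117 on days 2, 3, 5 and 14, and its nearness to Peg3 rests on the floor.

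Of 6 further genes usually placed in the same network, 4 were far higher on day 14 than on day 2. Igf2, the fetal growth factor whose gene lies beside H19, read 77.4 at 2 days, 478 at 3 days, 3605 at 5 days and 4220.0 at 14 days, low on the first array and high on the last 2. Igf2r, the receptor that clears IGF2 from the cell surface, read 43.5, 178, 797 and 619.6 on days 2, 3, 5 and 14. Cdkn1c, the gene of p57, an inhibitor of cyclin-dependent kinases, read 133, 1683, 4667 and 1969.5 on the same days and so had its peak on day 5, as Mest did. Dcn, the matrix proteoglycan decorin, read 505, 541, 1497 and 2935. Gatm, an enzyme of creatine synthesis, was high on day 3 alone (216), against 73.8 on day 2, 75.1 on day 5 and 69.8 on day 14. Gnas, which encodes a G protein alpha subunit, read 4672, 4272, 5695 and 8009 and passed 2-fold in none of the 4 comparisons. Day 14 was 54.5-fold above day 2 for Igf2, 14.9-fold for Cdkn1c, 14.3-fold for Igf2r and 5.81-fold for Dcn.

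Counted per comparison, 4 of these 6 genes were at least 2-fold higher on day 3 than on day 2 and none was lower. Against day 3, 4 were higher on day 5 and Gatm was lower. Against day 5, none was higher on day 14 and Cdkn1c was lower. Against day 2, 4 were higher on day 14 and none was lower, with a median log2 ratio of 3.19 (0.20 over all genes). Over all measured genes, 6.69%, 11.6%, 4.81% and 22.8% were higher in these 4 comparisons, and 1.8%, 5.97%, 3.1% and 14.8% lower. Several of the 6 genes were chosen with their values in these arrays known, so the counts are a description.

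A wider list of 64 imprinted genes outside the 9, some of which are imprinted in certain tissues only, had 48 on the array, the 6 network genes among them. The network genes gave 4 of the higher calls in each comparison below except day 14 against day 5, where they gave none. They are counted again here, so the wider list is not independent of them. Of the 48 genes, 7 of 27 measured were at least 2-fold higher on day 3 than on day 2 and none was lower (median log2 ratio 0.19). On day 5, 11 of 29 were higher than on day 3 and 1 was lower (median 0.42). On day 14, 2 of 31 were higher than on day 5 and 3 were lower (median 0.17), and against day 2, 15 of 32 were higher and 2 lower (median 0.86). In that last comparison 11 of the 32 ratios were bounds. The shares of all measured genes in these 4 comparisons were 6.69%, 11.6%, 4.81% and 22.8% higher, and 1.8%, 5.97%, 3.1% and 14.8% lower. Among the genes not yet named, Tfpi2, a protease inhibitor, was 5.30-fold higher on day 5 than on day 3. Calcr, the calcitonin receptor of quiescent satellite cells, was 12.4-fold higher on day 14 than on day 5, while the amino acid transporter gene Slc38a4 was 6.03-fold lower and Pon3, a lactonase gene, 3.43-fold lower at that step. Airn, the noncoding RNA that overlaps Igf2r on the other strand, read 17.1 at 2 days, 43.1 at 3 days, 114 at 5 days and 236 at 14 days, with its first value under the floor and its second at it.

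**Figure D4:**
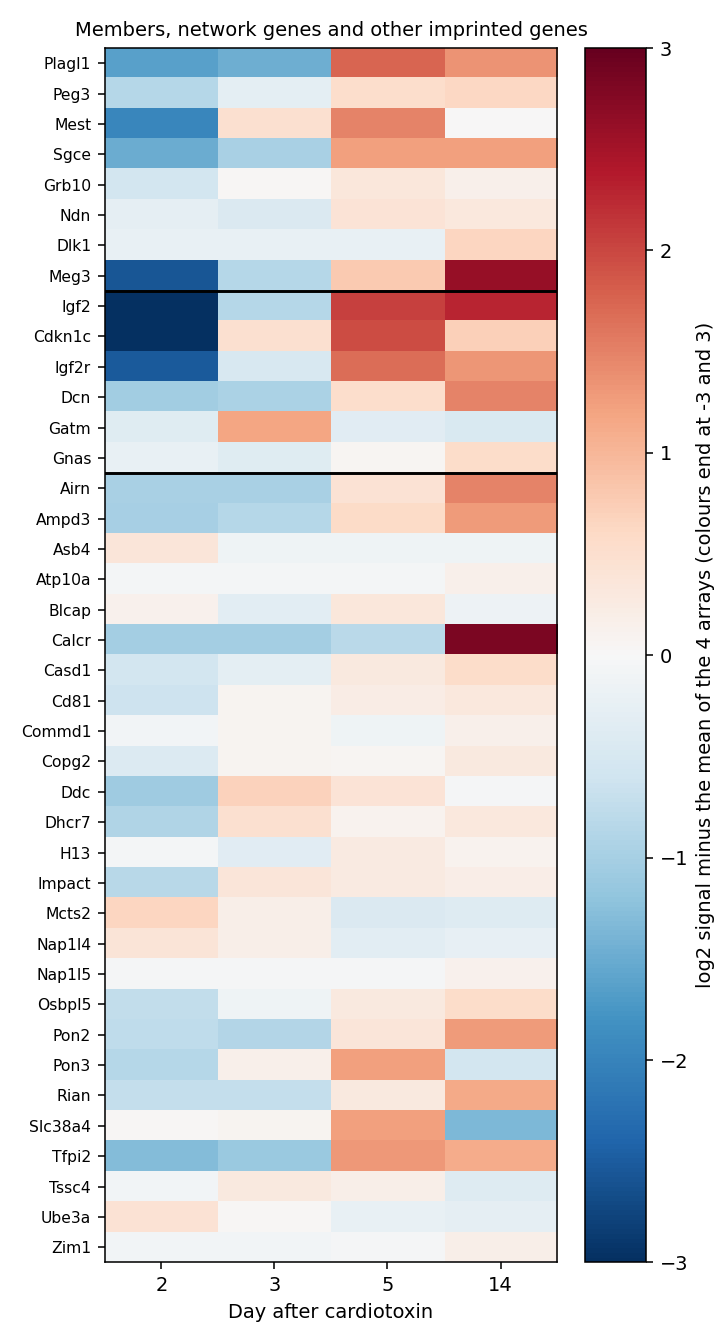
Log2 signal of the brightest probe set minus its mean over the 4 arrays (colour, red higher and blue lower) by day, for the 8 members (top block), the 6 network genes (middle) and the 26 other imprinted genes that passed the floor on any array (bottom, by name). Most of the upper 2 blocks run blue on day 2 and red on days 5 and 14, with Gatm highest on day 3, and the bottom block is mixed.

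The genes beside the members were listed as well. The next genes on the array on either side of each member, up to 3 a side in the gene order of the RefSeq assembly GRCm38.p6, included 34 that are not on the imprinted lists. On day 3, 4 of 17 measured among them were at least 2-fold higher than on day 2 and none was lower (median log2 ratio 0.19). Of 19 measured on days 5 and 3, 1 was at least 2-fold higher on day 5 than on day 3 and 2 were lower (median 0.20). On day 14, 1 of 20 was higher and 1 lower than on day 5 (median -0.11), and 6 of 19 were higher and 2 lower than on day 2 (median 0.33). Over all measured genes, 6.69%, 11.6%, 4.81% and 22.8% were higher in these 4 comparisons, and 1.8%, 5.97%, 3.1% and 14.8% lower. Within clusters, the values differed from gene to gene. Rian, the noncoding RNA after Meg3, read 10.8 at 2 days, 39.7 at 3 days, 86.1 at 5 days and 156 at 14 days, so that it passed the floor on days 5 and 14 only, with day 14 the higher. Casd1, beside Sgce, read 262, 313, 473 and 563 on those days. Peg10, on the other side of Sgce and paternally expressed like it, stayed under the floor on all 4 arrays, and so did Usp29 beside Peg3 and Magel2 beside Ndn. Cep41, the neighbour of Mest that is not on the lists, read 18.6, 51.4, 130.0 and 47.5 and was also highest on day 5.

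Insulin-like growth factors connect several of these genes, since GRB10 binds their receptors, IGF2R clears IGF2 and PLAGL1 controls Igf2 in mice. Of the 26 genes listed for IGF and insulin signalling 24 were on the array. On day 3, 8 of 20 measured were at least 2-fold higher than on day 2 and none was lower, with Igfbp5, a binding protein made by muscle cells, 10.9-fold higher. On day 5, 10 of 20 were higher than on day 3 and 1 was lower (median log2 ratio 0.91), with Igfbp7 7.39-fold, Igfbp3 6.84-fold and the ligand gene Igf1 5.59-fold higher. Igf2 and Igf2r count in this list too. On day 14, 2 of 21 were higher than on day 5 and 2 lower. Foxo1, a transcription factor that insulin signalling keeps out of the nucleus, was 2.67-fold higher and Igfbp3 3.04-fold lower at that step. Over all measured genes, 6.69%, 11.6% and 4.81% were higher at these steps in order of time, and 1.8%, 5.97% and 3.1% lower. The receptors that GRB10 binds read low: Igf1r read 44.3 at 2 days, 81.4 at 3 days, 40.1 at 5 days and 49.6 at 14 days, and Insr stayed under the floor. Irs1, a docking protein of both receptors, was 2.23-fold higher on day 5 than on day 3, and Irs2 was 2.43-fold higher on day 14 than on day 5. Nedd4, a ubiquitin ligase that binds GRB10, read 1875, 2630.1, 3486 and 3843 on days 2, 3, 5 and 14.

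Of 16 genes listed for DNA methylation and the upkeep of imprints, 13 were on the array and their median log2 ratio was below 0 in all 4 comparisons. Uhrf1, which brings DNMT1 to newly made DNA, read 686 at 2 days, 539 at 3 days, 254 at 5 days and 124 at 14 days. Dnmt1, the maintenance methyltransferase, read 671, 925, 483 and 235 on those days. Both genes were called lower on day 14 than on day 2, 5.53-fold for Uhrf1 and 2.86-fold for Dnmt1, and both are known to be more abundant in dividing cells. Dnmt3a, a de novo methyltransferase, was 2.15-fold higher on day 14 than on day 2. Over the list, 1 of 10 measured genes was higher and 2 were lower on day 14 than on day 2, with a median log2 ratio of -0.60. Of all measured genes, 22.8% were higher and 14.8% lower in that comparison. Zfp57 and Tet1 stayed under the floor on all arrays.

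The labelled cell type was checked with 10 markers of myogenic cells, of which 8 were above the floor on day 2, 10 on day 3 and 9 on days 5 and 14. Pax7 was under the floor on day 2 (35.7) and Met on days 2, 5 and 14. The summed signal of the 10 was 9809, 16075, 14437 and 14101 on days 2, 3, 5 and 14. On day 5, 2 of them were at least 2-fold higher than on day 3 and 2 were lower. The higher ones were Pax7 (35.7, 59.4, 217 and 323 on days 2, 3, 5 and 14) and Myf5 (298, 469, 979 and 2081). The lower ones were Myod1 (2272, 1405, 500 and 935) and Myog (261, 3876, 1839 and 1835). The summed signals of fibroblast, mural, macrophage and endothelial markers were also higher on days 5 and 14 than on days 2 and 3, as those of Plagl1, Sgce and Meg3 were. Fibroblast markers above the floor numbered 1, 3, 6 and 6 of 11 on days 2, 3, 5 and 14, and their summed signal was 150.5, 390.1, 3355 and 8491. Among them Dpt carried 5877 on day 14, Pdgfra read 11.1, 41.7, 105 and 104, and Dpp4, Clec3b, Twist2 and Osr1 were under the floor throughout. Markers of mural and smooth muscle cells, where Des also counts among the myogenic markers, numbered 3, 7, 9 and 10 of 11, with sums of 1799.7, 5854, 13062 and 12526. Of these sums Acta2 carried 750, 3596, 7744 and 6176, and Des carried 888, 1619.5, 1787 and 1232. Macrophage and leukocyte markers numbered 4, 9, 14 and 14 of 16, with sums of 386, 1423, 4189 and 3634, and Ptprc, the pan-leukocyte antigen, read 13.1, 14.1, 59.7 and 54.5. Endothelial markers numbered 0, 2, 4 and 7 of 12, with sums of 185, 275, 458 and 1045, and Pecam1 and Cdh5 were under the floor on all arrays. Schwann cell and nerve markers numbered 2, 4, 3 and 4 of 7, with sums of 829, 1536, 2712 and 4690.0, most of which came from Pmp22 (197, 282, 1064 and 2972) and Ncam1 (566, 912, 1485 and 1514). Erbb3, the neuregulin receptor, was instead highest on day 3, at 21.3, 255, 77.7 and 58.2, and S100b and Gfap were under the floor on all arrays. Adipocyte markers numbered 2, 1, 3 and 3 of 6, with sums of 996, 1146, 1079.6 and 3235 and with Adipoq under the floor. For Gapdh, the control probe set at the 3' end over the one at the 5' end gave 2.17, 1.88, 2.87 and 2.84 on days 2, 3, 5 and 14, a higher value meaning shorter labelled RNA. The same ratio for Actb was 1.80, 2.20, 2.19 and 2.14, and so did not set days 5 and 14 apart from day 3. The part of other cell types and of RNA length in the members' values was not tested.

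**Figure D5:**
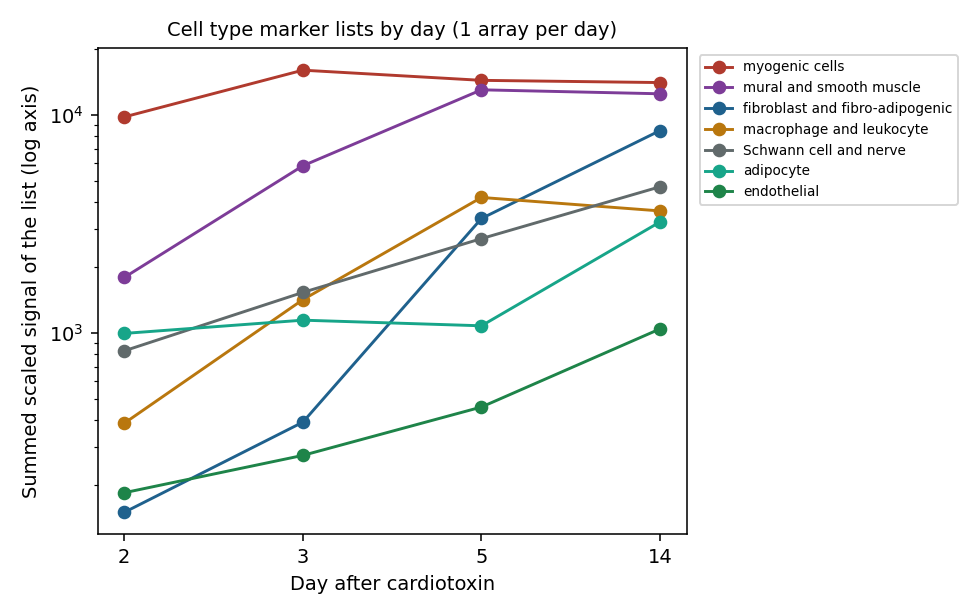
Summed scaled signal (log axis) of each marker list against the day after cardiotoxin, with 1 array per day. Heights can be compared along a line but not between lists, and the fibroblast line runs between 150.5 on day 2 and 8491 on day 14.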

How the data were processed

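RNA of purified myogenic cells was measured on Affymetrix mouse 430A arrays, 1 for each of days 2, 3, 5 and 14. Per the labels' protocols, RNA was labelled by an assay for small samples, which amplifies it. The authors deposited signal intensities, made with MAS5 per the submitters' processing notes, on a linear scale. No MAS5 setting or target level is named in the sources used here, and arrays carry no count depth.

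A factor per array set the 2% trimmed mean of its 22690 probe sets to a common value (factors 0.997, 1.13, 0.917 and 0.976 in order of day). Values under the pooled median, 43.0, were raised to it before log2 ratios were formed. The platform annotation gave 20393 probe sets a single symbol, and 691 with several were left out. The brightest probe set, by mean log2 signal, stood for a gene in counts. Python 3.11.15 with numpy 2.4.6, pandas 2.3.3 and scipy 1.17.1 was used, and the steps were tested on simulated data.

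Named were all members, the 6 network genes, up to 4 called genes of each list per comparison, and per member the 3 genes of nearest profile. Other genes named for their role (receptors, neighbours, markers, Airn, Nedd4) were chosen after their values were seen. Members and lists were chosen with earlier results of these data known. Alternatives were other scalings, floors, probe set summaries and call sizes.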

Additional observations from a re-analysis of the deposited data

How the results depend on the processing

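No paired analysis was possible because each day has 1 array and no comparison comes from a test. For single members, 208 values were recomputed under 7 other settings, and 189 kept their direction and their side of 2-fold, 4 lost the call, 8 gained it and 7, none of them called, changed sign. None of the called ratios changed sign. The number of members called for day 3 against day 2 was 2 and fell to 1 with the floor at 2 times the pooled median and to 1 with the mean of all probe sets, Meg3 being lost in both. The share of all genes called higher was 6.69%, 4.81% and 4.78% in that order. For day 5 against day 3 the number of members called was 3, and 6 with the values as deposited or with a call at 1.5-fold. The share of all genes called higher was 11.6%, 18.2% and 22.9% in that order. For day 14 against day 5 the number of members called was 2. It was 1 with a call at 3-fold, where Mest dropped out, and 3 with the floor at 0.5 times the pooled median or a call at 1.5-fold. The share of all genes called in either direction was 7.91%, 2.48%, 8.86% and 22.5% in that order. For day 14 against day 2 the number of members called was 5 and ranged between 4 and 7, none of them lower. It was 4 with scaling to a common median or a call at 3-fold, and 7 with a call at 1.5-fold. The share of all genes called higher was 22.8% in the main setting, and 11.1%, 12.2% and 35.3% in these 3. Scaling to a common median moved the median log2 ratio of all genes by -0.47 for day 3 against day 2, by -0.22 for day 5 against day 3, by -0.11 for day 14 against day 5 and by -0.77 for day 14 against day 2. Values as deposited moved it by -0.18, 0.27, -0.08 and 0.03 and quantile normalization by -0.08, -0.09, -0.02 and -0.19 in the same order. Signal near the floor limits Dlk1, Plagl1's second probe set and Meg3 on day 2, and having 1 array per day limits every comparison.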

Other observations

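The probe set 1448194_a_at, left out above because its annotation holds both H19 and Mir675, read 1430.1 at 2 days, 4783 at 3 days, 5216 at 5 days and 3189.9 at 14 days. It was 3.34-fold higher on day 3 than on day 2, 1.09-fold higher on day 5 than on day 3, 2.23-fold higher on day 14 than on day 2, and its day 14 value was 0.612 times that of day 5. The highest arrays were days 5 and 3, so that its order of days is not that of Igf2, the neighbouring gene. Among genes on the list of imprinted genes that stayed under the floor on all 4 arrays were Peg10, Phlda2, Ins2, Nnat and Peg12.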
